A study of Mus musculus with 4 samples.

Results

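Cells depleted of NelfE, a subunit of NELF, were set beside cells depleted of Spt4, a subunit of DSIF, by the RNA polymerase II (Pol II) each retained on chromatin. The comparison rests on 2 of the 4 libraries of the series, those labelled with a hairpin against NelfE (shNelfE) and against Spt4 (shSpt4), chosen by their knockdown label. Both came from V6.5 mouse embryonic stem cells (background C57BL/6-129) that carried the hairpin for about 4 days, received flavopiridol at 1 µM for 1 h before crosslinking, and had been grown for 2 passages without the fibroblast feeders they are kept on, per the labels. Both were sequenced on 1 flow cell. Libraries with a hairpin against Spt5 (shSpt5, same flow cell and passage number) and with a control hairpin (shControl, another flow cell and 1 passage without feeders) received the same drug and serve here as side values. The antibody recognises the N-terminus of Rpb1, the largest subunit of Pol II. Each group held 1 library, so no difference below has a replicate check, and an effect of the hairpin other than on its target cannot be told apart from the knockdown.

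DSIF (Spt4 with Spt5) and NELF bind Pol II shortly after it starts transcription and together hold it in a paused state close to the promoter. Cdk9, the kinase of P-TEFb, phosphorylates both complexes and Pol II. NELF then leaves, while DSIF stays on as a factor that helps elongation along the gene. Flavopiridol is an inhibitor of Cdk9 and is used to block release from the pause. How far it did so in these cultures was not measured here. The pair thus sets the loss of a pausing factor beside the loss of a factor that acts in pausing and in elongation.

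After reads at the same position and strand were reduced to 1 tag, 2938052 tags were kept in shNelfE and 2646944 in shSpt4. Repeated positions made up 10.2% and 8.13% of the reads. The distance between the tags of the opposite strands, which follows the fragment length, was 81 bp in shNelfE and 74 bp in shSpt4. The 13752 enriched regions, called on all 4 libraries at equal depth, had a median width of 700 bp and held a median of 18 tags in shNelfE and 16 in shSpt4. Values are given as normalised tags (tags per 1000000 kept tags of the library) or as ratios of shNelfE over shSpt4. Brackets hold exact binomial 95% intervals, which cover counting error only and not the spread between cultures. For medians over regions they hold order statistics instead. Where all reads were kept, copies made by PCR are not independent molecules either. Gene coordinates of mm8, the build of the files, were not used here. The regions therefore carry no gene names, and neither stem cell and feeder markers nor the targeted genes could be looked up in these libraries.

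At the level of the whole genome the libraries were close, and shNelfE had slightly less of its Pol II signal in the enriched regions. In shNelfE 15.5% of tags lay in regions (15.4 to 15.5%), and in shSpt4 16.9% (16.9 to 16.9%). The ratio of these shares was 0.915 (0.912 to 0.919). For comparison, the share was 12.3% in shSpt5 and 20.3% in shControl. The median region had a ratio of 0.934, and the middle 50% of regions ran from -0.45 to 0.34 on the log2 scale. Normalised tags were lower in shNelfE at 55.9% of regions and higher at 44.1%.

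The scaling matters for differences this small. In the 665 windows of 1 Mb that held no region, the ratio was 0.962 (0.957 to 0.968). Set against these windows instead of total tags, the median region moved from -0.099 (-0.12 to -0.082) to -0.043 (-0.062 to -0.026) on the log2 scale and stayed below 0.

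Outside the regions shNelfE held the larger share of tags at distances of 1 to 200 kb. Beyond the edges of regions the ratio rose from 0.996 (0.986 to 1.01) within 0.5 kb to 1.05 (1.03 to 1.06) at 1 to 2 kb and 1.07 (1.06 to 1.07) at 5 to 10 kb. It then fell back, to 1.03 (1.02 to 1.03) at 20 to 50 kb, 0.989 (0.985 to 0.994) at 200 to 500 kb and 0.959 (0.953 to 0.964) beyond 500 kb. The zones from 1 to 20 kb were thus the highest, above both the regions and the distant genome. Scaled to the windows without regions, the ratio was 0.952 (0.948 to 0.956) in regions and 1.11 (1.10 to 1.12) at 5 to 10 kb. This scaling multiplies every zone by the same factor and leaves their order as it is. The zone at 5 to 10 kb held 5.81% of the tags of shNelfE, 5.44% of shSpt4, 5.59% of shSpt5 and 5.78% of shControl. Among the 4 libraries shSpt4 thus had the lowest share of total tags there, while shNelfE was near shControl. Windows without regions held 8.88% of the tags of shNelfE, 9.23% of shSpt4, 10.8% of shSpt5 and 6.98% of shControl. Set against these windows, shSpt5 would be lowest and shControl highest, so the order of the libraries depends on the scaling.

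**Figure D1:**
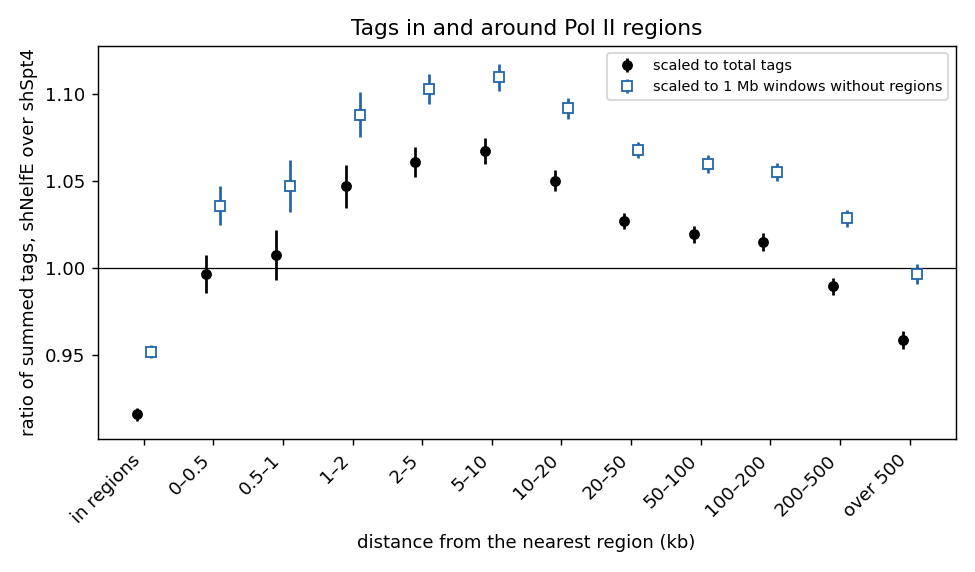
Ratio of summed tags, shNelfE over shSpt4, in regions and in zones of growing distance (kb) from the nearest region, scaled to total tags (filled) or to windows of 1 Mb without regions (open); bars are exact binomial 95% intervals. The ratio is lowest in regions, at 0.916 without the mitochondrial ones by total tags, and peaks at 1.07 in the zone from 5 to 10 kb.

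The lower signal of shNelfE was found at the strongly occupied regions. Regions were sorted into 4 classes by their normalised tags in shControl and shSpt5, libraries that the comparison does not use. In the 3438 regions of the highest class the summed ratio was 0.887 (0.882 to 0.892), and in the class below it 0.952 (0.943 to 0.960). In the 2 lower classes the ratios were 1.00 (0.988 to 1.02) and 1.01 (0.991 to 1.03), so that by total tags no difference was detectable there at this depth. By windows without regions the ratios from the highest to the lowest class were 0.922 (0.917 to 0.927), 0.989 (0.980 to 0.998), 1.04 (1.03 to 1.06) and 1.05 (1.03 to 1.07). Under that scaling the weakly occupied regions were thus higher in shNelfE. Weak regions hold a larger share of background tags, whose part in this order was not tested. Wide regions (1000 bp or more) had a ratio of 0.893 (0.888 to 0.898), and narrow ones (up to 500 bp) 1.02 (1.00 to 1.03), or 0.928 (0.924 to 0.933) and 1.06 (1.04 to 1.07) by windows without regions. Width and occupancy go together, and these groupings share most of their regions.

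The summit of the regions was lower in shNelfE than the sequence beside it. Within 150 bp of the summit the ratio was 0.908 (0.903 to 0.913), and at 1 to 2 kb it was 0.974 (0.966 to 0.983). By windows without regions these were 0.944 (0.939 to 0.949) and 1.01 (1.00 to 1.02), so that the direction at 1 to 2 kb depended on the scaling. The order of centre and flank cannot change with it. Moving each library by its own strand distance, in place of a common one, left the central ratio at 0.911. Region by region the effect was small: the median focal ratio (density within 500 bp of the summit over density 1 to 3 kb away) was 8.62 in shNelfE and 8.91 in shSpt4, beside 6.66 in shSpt5 and 11.1 in shControl. The median difference was -0.040 on the log2 scale, with an interval over regions from -0.059 to -0.020.

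Many regions had more Pol II tags along 1 side than along the other, the pattern that a gene with polymerase beyond its promoter would give. These were turned so that the heavier flank, chosen in shControl and shSpt5, lay on the right. At the 4780 regions whose heavier flank had at least 10 tags and 2 times those of the other, the density 1 to 2 kb along the heavier side was 3.30 normalised tags per kb in shNelfE and 3.53 in shSpt4, a ratio of 0.934 (0.922 to 0.946). On the lighter side at the same distance the densities were 0.841 and 0.838, a ratio of 1.00 (0.977 to 1.03). Over 1 to 3 kb, the ratio on the heavier side divided by that on the lighter side was 0.931 (normal approximation, 0.911 to 0.952). By windows without regions the same flanks had 0.971 (0.959 to 0.984) and 1.04 (1.02 to 1.07). Closer to the summit both sides were lower in shNelfE by total tags. At 0.5 to 1 kb the ratio was 0.927 (0.912 to 0.941) on the heavier and 0.949 on the lighter side, where 16414 tags of shNelfE stood against 15582 of shSpt4. At 0.15 to 0.5 kb the heavier side had 7.56 normalised tags per kb in shNelfE and 7.80 in shSpt4, and by windows without regions its ratio was 1.01 (0.994 to 1.02), so that under the second scaling the lower signal was not continuous. Farther out on that side the ratio was 0.994 (0.978 to 1.01) at 2 to 3 kb, 1.01 (0.993 to 1.02) at 3 to 5 kb and 1.04 (1.03 to 1.06) at 5 to 10 kb.

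Of these regions 2110 had their nearest other summit more than 20 kb away. There the ratio was 0.885 (0.873 to 0.897) at the summit, 0.893 (0.872 to 0.916) at 1 to 2 kb on the heavier side and 1.06 (1.04 to 1.08) at 5 to 10 kb. The lighter side at 1 to 2 kb was lower here as well, at 0.956 (0.914 to 0.999). The heavier over the lighter side had an interval from 0.914 to 0.988, which overlaps that of all 4780. The higher ratio at 5 to 10 kb was thus also seen where no other summit lay near. It was not limited to the heavier side, as the lighter side had 1.04 (1.02 to 1.07). At the 5315 regions with fewer than 10 tags on each flank it was not seen by total tags. There the ratios at 5 to 10 kb were 0.997 (0.984 to 1.01) on the heavier and 0.998 (0.985 to 1.01) on the lighter side. By windows without regions both were 1.04.

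**Figure D2:**
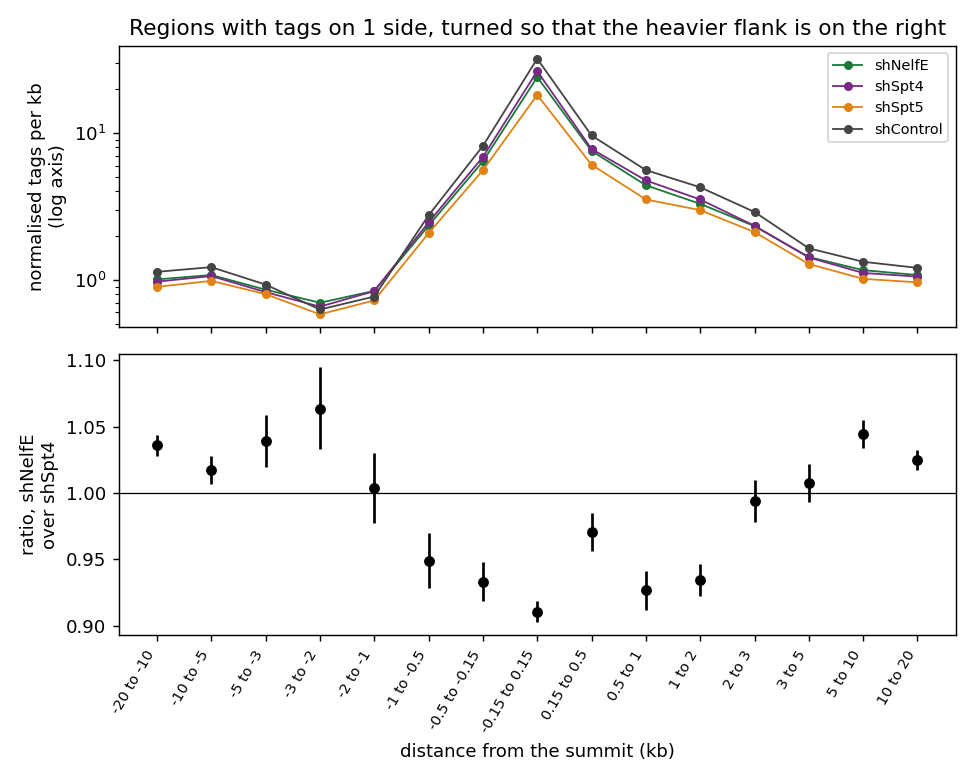
Top: normalised tags per kb (log axis) in the 4 libraries by distance (kb) from the summit at the 4780 regions with a heavier flank, which is drawn to the right. Bottom: ratio of shNelfE over shSpt4 in the same bins with exact binomial 95% intervals; by total tags it is lowest at the summit, at 0.911, stays below 1 to 2 kb on the heavier side and is above 1 at 5 to 20 kb on both sides.

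Against this even background, particular regions differed strongly and in both directions. Calls required a ratio of 2 or more, or of 0.5 or less, and an interval that excluded 1. By total tags 375 regions were called higher in shNelfE, 2.73% of the 13751 with any tag in the pair, and 414 lower, 3.01%. By windows without regions the calls were 440 higher (3.2%) and 331 lower (2.41%). The scalings differ by 1 factor, so that all 375 and 331 were among the calls of the other scaling. Set against the median region, 481 were higher and 300 lower, so that which direction had more calls depended on the scaling. In the class of highest occupancy, where counting error is smallest, the standard deviation of the log2 ratio was 0.37, and the counting error of the tags alone would give 0.25.

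**Figure D3:**
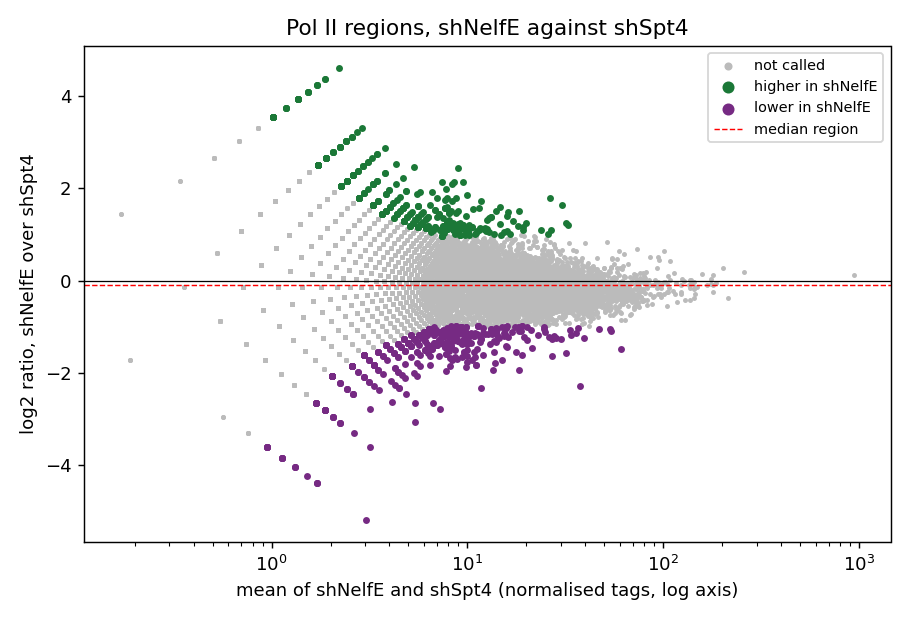
Each of the regions with any tag in the pair by its mean normalised tags (log axis) and its log2 ratio of shNelfE over shSpt4, with a pseudocount of 0.5 tags. Coloured points are the 375 regions called higher and the 414 called lower by total tags, and the dashed line is the median region at -0.099.

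A call made on the tags of 1 strand was read on the tags of the other, which are separate reads of the same libraries. Of 224 regions called higher on plus-strand tags (1.63%), 172 were above 1 on minus-strand tags, where their median ratio was 1.64 and that of all regions 0.901. Of 323 called lower (2.35%), 268 were below 1, with a median of 0.628. On minus-strand tags 38 of the 224 and 60 of the 323 passed the same call themselves. Called on minus-strand tags, 190 were higher (1.38%) and 346 lower (2.52%), and their median ratios on the plus strand were 1.67 and 0.643. Among regions holding 50 tags or more, 1.58% were called higher and 3.31% lower on the plus strand, and 1.38% and 3.49% on the minus strand. The regional differences were thus seen again on the other strand, at a smaller size than in the tags that chose the regions. Both strands come from 1 library a side, so this speaks to counting error and not to the spread between cultures.

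Counting both strands, 5502 regions held 50 tags or more in shNelfE and shSpt4 together. Of these, 72 were called higher by total tags (1.31%) and 129 lower (2.34%). By windows without regions 82 (1.49%) and 102 (1.85%) were. The 72 and the 102 that passed under both scalings are described from here on.

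Where shNelfE was higher, shSpt5 had about the level of shSpt4 by total tags, and shControl about that of shNelfE. Here and below, normalised tags and ratios to shControl are by total tags alone. Windows without regions held 8.88% of the tags of shNelfE, 9.23% of shSpt4, 10.8% of shSpt5 and 6.98% of shControl. Set against them, shControl would lie above shNelfE at the median and shSpt5 below shSpt4, so this match depends on the scaling. At the 72 higher regions the median was 16.0 normalised tags in shNelfE, 7.18 in shSpt4, 7.06 in shSpt5 and 16.7 in shControl. At all 5502 regions the medians were 17.4, 19.3, 14.1 and 23.3. The 72 regions were chosen on shNelfE and shSpt4 alone. The shControl library is the highest and shSpt5 the lowest at the median of all 5502, which by itself places them nearer to the higher and the lower of the pair. On the log2 scale the median of shNelfE over shControl was -0.020 at these regions and -0.41 at all 5502, while that of shSpt4 over shControl was -1.26 and -0.24. Both of these sets of ratios share the control library.

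Where shNelfE was lower, shSpt4 had the highest median of the 4 libraries by total tags. Its lead over shControl would be smaller by windows without regions, which held 9.23% of the tags of shSpt4 and 6.98% of shControl. At the 102 lower regions the median was 7.32 normalised tags in shNelfE, 18.3 in shSpt4, 9.47 in shSpt5 and 12.3 in shControl. The shControl library lay between the pair at 88 of them, above both at 7 and below both at 7. At all 5502 regions it lay between at 1327, above both at 3802 and below both at 373. At the 72 higher regions these counts were 35, 36 and 1. The 2-fold gap that a call requires by itself makes a place between the pair more frequent. At the 102 lower regions the median of shSpt4 over shControl was 0.57 on the log2 scale, against -0.24 at all 5502. That of shNelfE over shControl was -0.76, against -0.41. By these medians shSpt4 was farther from its usual position to the control than shNelfE was in both sets of called regions. The choice of regions on these 2 libraries by itself moves both of them, so which of them differed was not tested.

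The differences were not limited to the regions themselves. Tags within 5 kb of the edges, outside any region, took no part in the calls (tags beside neighbouring regions counted for each). Around the 72 higher regions they numbered 2786 in shNelfE and 1869 in shSpt4, a ratio of 1.34 (1.27 to 1.42). Around the 102 lower regions they numbered 2724 and 3333, a ratio of 0.736 (0.700 to 0.775). Around all 5502 regions the ratio was 1.01 (0.998 to 1.01). Flanking tags therefore moved with the called regions in both directions, by less than the regions did. Among all 375 higher and 414 lower calls by total tags, of any depth, other regions within 20 kb that were not called themselves were read too. Their median log2 ratio was 0.21 near a higher call and -0.31 near a lower one, against -0.099 at all regions.

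The highest ratio was on chromosome 11, from 51490451 to 51490950. This region held 15.3 normalised tags in shNelfE (45 tags), 2.64 in shSpt4 (7 tags), 2.57 in shSpt5 (8) and 16.1 in shControl (51). The ratio of shNelfE over shSpt4 was 5.79 (2.59 to 15.2), and the 2 DSIF libraries stood together far below the other pair. Beside the region, within 5 kb, 121 tags were found in shNelfE against 38 in shSpt4, a ratio of 2.87 (1.98 to 4.25).

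On chromosome 16, 84656451 to 84657300 had 18.0 normalised tags in shNelfE, 5.29 in shSpt4, 5.13 in shSpt5 and 25.6 in shControl. Its ratio was 3.41 (1.87 to 6.66), with the same grouping of the libraries. On chromosome 8, 125346251 to 125347200 had 17.4, 5.67, 8.34 and 21.5, a ratio of 3.06 (1.70 to 5.87), and its flanks had a ratio of 1.83 (1.19 to 2.87).

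The rest of the 10 highest were 55501201 to 55502000 of chromosome 4, 43180701 to 43181500 and 73300751 to 73302850 of chromosome 7, 54384251 to 54384950 of chromosome 9, and 3 regions of chromosome 12. Over these 10 the ratios ran from 3.02 to 5.79, and both strands were above 1 at 10 of 10. In shSpt4 the ratio to shControl was 0.164 to 0.409, and in shNelfE it was 0.706 to 1.46. The tags of shSpt4 and shNelfE chose the 10, so these ratios are no separate check. The shSpt5 library was below shNelfE and below shControl at all 10. Flanking tags were higher in shNelfE at 9 of the 10, with an interval that excluded 1 at 4. Since the 10 were picked for their size, the intervals are not adjusted for that choice.

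The 3 regions on chromosome 12 belong to 1 stretch of 51.6 kb, from 87358851 to 87410400, that held the longest run of higher calls, with consecutive calls at most 50 kb apart. Runs were counted over all 375 higher and 414 lower calls by total tags, of any depth. The stretch contained 6 regions, 5 of them called, 2 of these with fewer than 50 tags in the pair. The first, 87358851 to 87360350, had 40.8 normalised tags in shNelfE, 11.7 in shSpt4, 20.9 in shSpt5 and 47.3 in shControl, a ratio of 3.49 (2.33 to 5.36). The last, 87408401 to 87410400, had 46.3, 14.7, 12.8 and 53.3, a ratio of 3.14 (2.19 to 4.61). In between, 87378751 to 87379450 had 15.7, 3.40, 5.78 and 10.7, a ratio of 4.60 (2.23 to 10.7). At each of these 3 regions the libraries fell into the same pairs, shNelfE with shControl high and the DSIF knockdowns low.

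Between the regions of this stretch the tags differed as well. Outside the regions 469 tags lay in shNelfE, 200 in shSpt4, 247 in shSpt5 and 562 in shControl, and the ratio of the first pair was 2.11 (1.79 to 2.51). In the 50 kb before the stretch 203 tags in shNelfE against 95 in shSpt4 gave a ratio of 1.93, and in the 50 kb after it 104 against 76 gave 1.23 (0.908 to 1.68). The next regions, 228 kb before and 205 kb after, had ratios of 0.772 (0.428 to 1.38) and 1.91 (0.783 to 5.13). The difference thus extended over the stretch and toward lower coordinates, and was not detectable at the nearest region on either side. Over the same calls, 3 or more higher calls stood together 4 times, this stretch included, and 3 or more lower calls once.

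The lowest ratio of shNelfE over shSpt4 was on chromosome 3, from 129208801 to 129209450. This region held 3.74 normalised tags in shNelfE (11 tags), 19.6 in shSpt4 (52), 12.2 in shSpt5 (38) and 5.05 in shControl (16), a ratio of 0.191 (0.0897 to 0.370). Here both DSIF libraries were above both others. Its flanks within 5 kb held 34 tags in shNelfE and 109 in shSpt4, a ratio of 0.281 (0.185 to 0.416).

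The most strongly occupied of the 10 lowest was on chromosome 17, from 28821051 to 28822350. It held 12.6 normalised tags in shNelfE, 62.3 in shSpt4, 23.1 in shSpt5 and 24.0 in shControl. The ratio was 0.202 (0.137 to 0.290), and the libraries with intermediate values stood close together, with shSpt4 well above and shNelfE below them. On chromosome 12, 27928701 to 27929950 had 7.49, 29.1, 8.66 and 13.9 in the same order of libraries, a ratio of 0.257 (0.153 to 0.418), and here shSpt4 alone was high.

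The others of the 10 lowest, with ratios up to 0.293, were 36501001 to 36501950 of chromosome 1, 165589851 to 165590400 and 180518451 to 180519400 of chromosome 2, and 148926551 to 148927200 of chromosome 3. Chromosome 4 held 14790851 to 14792100, chromosome 11 held 120131951 to 120132750, and chromosome 13 held 111515551 to 111516250. Both strands were below 1 at 10 of 10. The shControl level was below shSpt4 and above shNelfE at all 10. In shSpt4 the ratio to shControl ran from 1.43 to 3.89, and in shNelfE from 0.420 to 0.742. Here too the tags of shSpt4 and shNelfE chose the 10. The shSpt5 library was below shSpt4 at all 10 and above shNelfE at 8. Flanking tags were lower in shNelfE at all 10, with an interval that excluded 1 at 4.

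**Figure D4:**
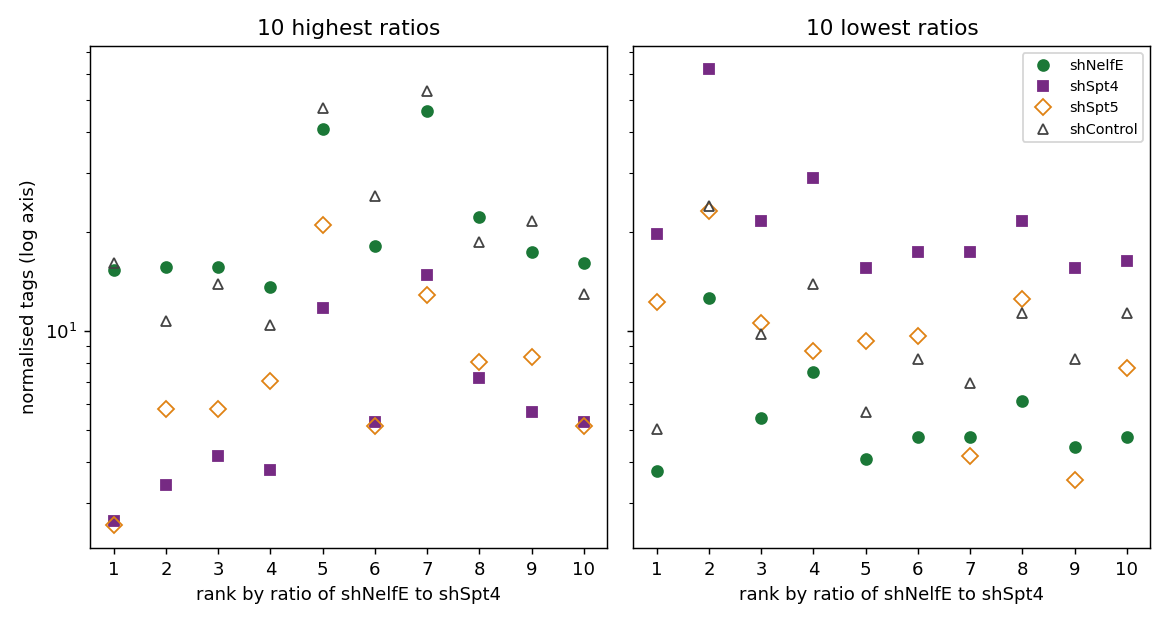
Normalised tags (log axis) in each of the 4 libraries at the 10 regions with the highest and the 10 with the lowest ratio of shNelfE over shSpt4, ordered by rank of that ratio; each point is 1 library. By total tags, shControl lies near shNelfE on the left, with shSpt5 below both. On the right shControl lies between shNelfE and shSpt4 at all 10.

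Chromosome X stood apart from the autosomes. Of its 380 regions, 39 were called lower in shNelfE (10.3%) and 4 higher (1.05%) by total tags, where on autosomes 2.80% of 13350 regions were called lower and 2.78% higher. By windows without regions 31 were lower and 4 higher, against 300 and 436 on autosomes. The summed ratio of its regions was 0.819 (0.795 to 0.844), and that of the autosomal regions 0.918 (0.914 to 0.922). No autosome was lower than chromosome 6, at 0.871 (0.854 to 0.889), or higher than chromosome 8, at 0.951 (0.936 to 0.966). The 39 regions were spread over the chromosome from 6.9 to 165.3 Mb, in 30 different windows of 1 Mb.

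The shift on chromosome X was larger in regions than in windows without regions. Over all tags outside regions, the ratio of chromosome X was 0.944 (0.932 to 0.957), and those of the autosomes ran from 0.994 to 1.05. A shift was thus also seen outside regions. Relative to autosomes, the ratio of chromosome X was 0.892 (0.866 to 0.919) in regions and 0.966 (0.940 to 0.993) in windows without regions. Of the tags in regions, chromosome X held 1.86% (1.82 to 1.90%) for shNelfE and 2.08% (2.04 to 2.12%) for shSpt4. For shSpt5 it held 1.92% (1.88 to 1.97%), and for shControl 1.87% (1.84 to 1.90%). The shSpt4 library was thus the highest of the 4, and shNelfE was at the level of shControl. In windows without regions the shares were 3.89%, 4.02%, 3.99% and 3.76%, and the intervals of shSpt4 and shSpt5 overlapped. Among windows without regions, chromosome 9 had the highest ratio of shNelfE over shSpt4, at 1.00 (0.979 to 1.03), followed by chromosome 4 at 0.982 (0.958 to 1.01) and chromosome 11 at 0.977 (0.945 to 1.01). The lowest were chromosome X at 0.931 (0.905 to 0.957), chromosome 1 at 0.944 (0.926 to 0.963) and chromosome 13 at 0.949 (0.920 to 0.979).

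**Figure D5:**
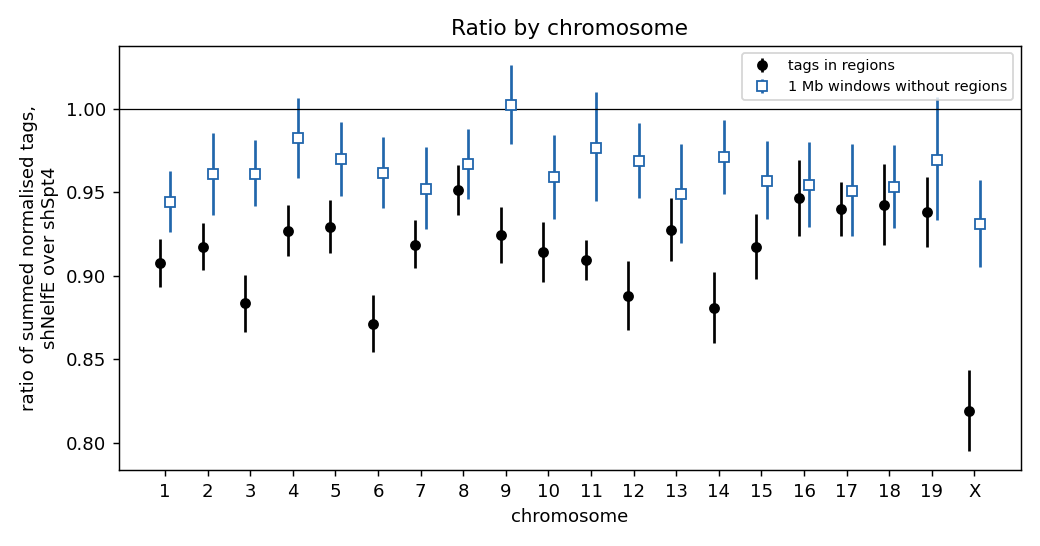
Ratio of summed normalised tags, shNelfE over shSpt4, in regions (filled) and in windows of 1 Mb without regions (open) for the autosomes and chromosome X, with exact binomial 95% intervals. Of these, chromosome X is lowest in regions, at 0.819, and the autosomes run from 0.871 to 0.951.

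The regions with most tags had ratios from 0.763 to 1.21. Without a whole cell extract library, tags there that do not come from Pol II cannot be told apart. Of the 10 regions with most tags in the pair, none was called. The first, on chromosome 17 from 39451101 to 39454750, had 975 normalised tags in shNelfE and 900 in shSpt4, a ratio of 1.08 (1.03 to 1.14), and its neighbour from 39456001 to 39456950 had 276 and 242, a ratio of 1.14 (1.03 to 1.27). With 1 tag per position and strand such dense regions have a ceiling: with all reads kept the ratios were 1.19 (1.14 to 1.25) and 1.32 (1.22 to 1.44). On chromosome 13, 23746001 to 23747600 had 220 and 182, a ratio of 1.21 (1.08 to 1.37), with shSpt5 at 188 and shControl at 190. These 3 were above 1, against the trend of the highly occupied class.

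On chromosome 6, 124706101 to 124707400 had 164 normalised tags in shNelfE and 195 in shSpt4, a ratio of 0.845 (0.745 to 0.958). Of the others, 72187751 to 72189300 of chromosome 1 had a ratio of 1.08, 115750101 to 115751850 of chromosome 5 had 0.966, and 87551551 to 87553250 of chromosome 8 had 1.03. On chromosome 10, 39946851 to 39948550 had 0.941, and 23562201 to 23563750 of chromosome 13 had 0.948. Each of these 5 had an interval that held 1. The mitochondrial stretch from 1 to 4400 had 185 normalised tags in shNelfE, 243 in shSpt4, 344 in shSpt5 and 140 in shControl, a ratio of 0.763 (0.680 to 0.857).

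Among the 5 widest regions, which include the first one on chromosome 17 and the mitochondrial stretch, the others were lower in shNelfE by total tags. On chromosome X, 6919401 to 6923150 had 45.6 normalised tags in shNelfE, 71.0 in shSpt4, 22.8 in shSpt5 and 62.5 in shControl, a ratio of 0.642 (0.511 to 0.806). On chromosome 11, 77797851 to 77801450 had a ratio of 0.749 (0.603 to 0.930). On the same chromosome 95820901 to 95824100 had 95.3 normalised tags in shNelfE and 114 in shSpt4, a ratio of 0.838 (0.710 to 0.989). By windows without regions its ratio was 0.871 (0.738 to 1.03), an interval that holds 1.

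Called in each library alone at equal depth, regions numbered 7359 in shNelfE and 7511 in shSpt4, beside 6017 in shSpt5 and 8994 in shControl. Of the shNelfE regions 84.3% overlapped a shSpt4 region by at least 1 bp, and of the shSpt4 regions 82.6% overlapped a shNelfE region. Each list overlapped that of shControl more, with 91.2% of the shNelfE and 90.0% of the shSpt4 regions, and the longer list of shControl by itself raises these shares.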

How the data were processed

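Pol II ChIP-seq positions of 4 libraries were used. The deposited values (another kind of unit, aligned positions) are 1 signed mm8 position per read, the sign giving the strand, with no normalization, per the file headers. These headers also name the aligner, Bowtie (-e 70 -k 2 -m 2 -n 2 -l 36 --best); its version and any removal of duplicates are not given in the sources used here. The first read category (BWT1) was used, with 1 tag per signed position.

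Tags were moved by 40 bp, from a strand distance of 80 bp on chromosomes 11 and 19 over the libraries together. Regions were 250 bp windows placed every 50 bp with a Poisson p of at most 1e-9 in the 4 libraries pooled after thinning each to 2646944 tags, relative to the genome-wide density or, where higher, the local one (5000 bp around, without the nearest 1000 bp), and were joined where at most 500 bp apart. The summit was the centre of the 151 bp with most tags. Coordinates are 1-based on mm8, as a genome browser shows them, to within the grid. Log2 ratios used a pseudocount of 0.5 tags. The focal and median intervals are order statistics over regions, which are not replicates, and no p-value was computed with 1 library a group.

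The regions named were the 10 with most tags in the pair, the 10 highest and 10 lowest ratios among regions with at least 50 tags called under both scalings, the 5 widest, and the 3 chromosomes highest and lowest in windows without regions. Members, lists and named rules were chosen with earlier results of these data known. The scripts (Python 3.11.15, numpy 2.4.6, scipy 1.17.1, pandas 2.3.3) were tested on simulated data. No whole cell extract library was used here.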

Additional observations from a re-analysis of the deposited data

Results flagged for a closer look

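The second read category, which no comparison uses, held 6.95% of the deposited positions in shNelfE and 6.96% in shSpt4, above the 6.72% of shControl by more than counting error. The control came from another flow cell, and the pair itself differed little.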

How the results depend on the processing

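No paired analysis was possible because each group held 1 library. The comparison of the pair kept its direction for the median region, the share in regions, the centre, the focal difference, the heavier over the lighter flank (0.931) and chromosome X over autosomes in windows (0.966) under every alternative run for each. The flank ratio alone turned, to 1.01 by windows without regions. On the log2 scale the median region, at -0.099, was -0.081 with all tags, -0.070 with shNelfE thinned, -0.043 by windows without regions, -0.12 by tags outside regions, -0.12 with regions of shControl and shSpt5, and -0.15 at regions with at least 50 tags. The centre ratio, 0.908, was 0.903 at a Poisson p of 1e-12, 0.901 with regions of shControl and shSpt5, 0.944 by windows without regions, 0.917 with tags not moved, 0.891 at regions with no other summit within 20 kb and 0.881 at regions with at least 50 tags. The flank ratio, 0.974, was 0.961 at 1e-12, 0.957 with regions of shControl, 0.965 with those of shControl and shSpt5, 0.958 with no other summit within 20 kb and 0.923 at 50 tags. The focal difference, -0.040, was -0.063 at 50 tags and -0.022 with tags not moved, where its interval reached no difference. The ratio of shares in regions was 0.911 at 1e-12, 0.911 with regions of shControl and 0.910 with those of shControl and shSpt5. Calls numbered 237 higher and 244 lower with the 9587 regions of shControl, and 157 and 213 with a 99% interval. At a ratio of 1.5 there were 491 higher and 857 lower calls. Relative to the median region 481 were higher and 300 lower. Shared regions were 86.7% of shNelfE at 1e-12, and at an overlap of 50% they were 78.3% of shNelfE and 76.7% of shSpt4. The cause of these shifts was not tested, beyond fewer regions tested with the regions of shControl. The choice of own strand distances, the regions with at least 50 tags and the reading of calls across strands were added after seeing the data. At the median depth of 16 to 18 tags a region, a change under 2-fold at a single typical region was not detectable.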
